A study of Mus musculus with 18 samples.

Results

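The comparison set the non-basal cells of the mouse trachea against the club cell-enriched luminal cells of the lung airways, and asked how secretory cells of the upper airway differ from those of the lower airway. Its members were 6 of the 18 libraries of the series: the 3 titled Non-Basal, from normal trachea, and the 3 titled Airway CD24L, from normal lung, chosen by title. All were from untreated C57BL/6 males of 8 to 12 weeks. The tracheal cells came from mice 1, 2 and 3, were released from peeled epithelium with dispase and trypsin, and were sorted as negative for NGFR, a receptor on basal cells. The lung cells, called CD24lo here, came from mice 4, 5 and 6, were released with collagenase, and were sorted as CD45- CD31- EpCAM+ CD104+ with low CD24, a gate whose label describes it as enriched in club cells. The other 12 libraries held tracheal basal, lung airway CD24hi, lung alveolar and lung EpCAM-negative cells, 3 of each. Organ, animals, dissociation, gate and sequencing depth differed together between the groups, and their parts in any difference cannot be told apart. The series' design text names airways of 6 lungs and does not mention the trachea, so the organ was taken from the sample labels. In bulk RNA, fewer cells of a type and less RNA per cell cannot be told apart.

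Secretory cells of the conducting airways release antimicrobial proteins, mucins and small carrier proteins onto the airway surface. In the mouse most are club cells, which also carry cytochrome P450 enzymes that metabolise inhaled compounds. Bpifa1 (SPLUNC1) encodes a secreted surface-active protein with antimicrobial activity, and Scgb1a1 (CC10) the secretoglobin by which club cells are recognised. NKX2-1 and the forkhead factors FOXA1 and FOXA2 are known regulators of secretory genes in airway and alveolus.

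Each tracheal library held 30474913 to 32993621 counted reads and each CD24lo library 9811503 to 11693754. In each group replicate 1 stood apart from the other replicates: counts of tracheal replicate 1 differed from the others with a chi-square of 22.5 to 22.9 per degree of freedom, against 5.49 between those, and with 25.8 to 26.6 against 7.88 in CD24lo cells. CD24lo replicate 1 held more endothelial and ciliated transcripts than the other CD24lo libraries. The p-values come from a fit of all 18 libraries, 3 in each of 6 groups, which share 1 estimate of the spread between libraries. Populations of the same organ came from the same mice, and the fit did not use this. Fitted alone, the 6 compared libraries gave 8611 of 16347 genes at an adjusted p under 0.05.

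Promoters of 5 genes that differed between the groups are shown, since levels of NKX2-1 and FOXA transcripts are given further on, and Scgb1a1 had no entry in the promoter table used. Reg3g, Scgb3a1 and Bpifa1 were among the most abundant transcripts of the tracheal cells, and Scgb1c1 and Scnn1b were higher in every CD24lo library than in any library of the other lung populations. Each run covers 250 bases before to 50 bases after the gene start in RefSeq (GRCm38.p6), 5′ to 3′ on the strand of the gene. Capitals mark CTCAAG, a core recognised by NKX2-1, and TGTTTNC, a core recognised by forkhead factors, searched on both strands, and no matches overlapped.
Bpifa1: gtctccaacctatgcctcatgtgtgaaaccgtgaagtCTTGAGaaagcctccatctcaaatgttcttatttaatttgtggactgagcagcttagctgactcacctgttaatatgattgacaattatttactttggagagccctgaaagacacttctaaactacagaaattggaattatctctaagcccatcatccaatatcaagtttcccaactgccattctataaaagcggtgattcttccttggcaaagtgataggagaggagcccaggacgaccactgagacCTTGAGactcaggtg
Reg3g: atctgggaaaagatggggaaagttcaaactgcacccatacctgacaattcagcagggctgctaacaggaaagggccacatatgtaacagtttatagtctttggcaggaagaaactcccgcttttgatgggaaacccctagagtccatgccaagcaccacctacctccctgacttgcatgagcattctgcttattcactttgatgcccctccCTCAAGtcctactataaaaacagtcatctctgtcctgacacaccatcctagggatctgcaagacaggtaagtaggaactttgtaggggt
Scgb3a1: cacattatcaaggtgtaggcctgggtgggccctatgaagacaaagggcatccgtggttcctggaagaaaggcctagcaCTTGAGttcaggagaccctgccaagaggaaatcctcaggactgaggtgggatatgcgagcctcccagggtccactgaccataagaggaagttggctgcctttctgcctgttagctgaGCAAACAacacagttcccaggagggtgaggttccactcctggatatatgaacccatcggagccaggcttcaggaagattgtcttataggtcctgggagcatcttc
Scgb1c1: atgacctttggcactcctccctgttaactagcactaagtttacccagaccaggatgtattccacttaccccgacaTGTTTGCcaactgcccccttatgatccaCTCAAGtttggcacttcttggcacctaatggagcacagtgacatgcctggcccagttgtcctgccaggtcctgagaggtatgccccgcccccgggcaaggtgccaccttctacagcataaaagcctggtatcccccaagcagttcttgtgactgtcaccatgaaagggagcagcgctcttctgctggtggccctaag
Scnn1b: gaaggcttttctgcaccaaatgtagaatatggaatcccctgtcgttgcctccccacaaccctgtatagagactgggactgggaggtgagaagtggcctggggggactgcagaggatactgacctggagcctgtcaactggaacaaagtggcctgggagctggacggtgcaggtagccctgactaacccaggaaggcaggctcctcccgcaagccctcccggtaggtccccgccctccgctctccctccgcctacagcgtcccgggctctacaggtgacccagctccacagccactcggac
The windows lie at chr2:154142630-154142929 on the plus strand for Bpifa1, chr6:78468825-78469124 on the minus strand for Reg3g, and on the plus strand at chr11:49663345-49663644 for Scgb3a1, chr7:140845315-140845614 for Scgb1c1 and chr7:121864788-121865087 for Scnn1b. CTCAAG lay 213 bases before the start of Bpifa1 and again at base 36 after it, 39 bases before the start of Reg3g, 172 before that of Scgb3a1 and 147 before that of Scgb1c1. TGTTTNC lay 55 bases before the start of Scgb3a1 and 175 before that of Scgb1c1. The Scnn1b window held neither. Of 32851 RefSeq promoters of this length, 15.9% held CTCAAG and 20.5% TGTTTNC, and a match here is a description of the sequence.

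Of 17989 genes tested, 9551 (53.1%) differed at an adjusted p under 0.05, of which 4545 (25.3% of all) were higher and 5006 (27.8%) lower in tracheal non-basal cells. Changes over 2-fold were more often falls, with 1495 genes higher and 3012 lower. The median log2 difference over all genes was -0.04, and the libraries of the groups did not overlap in CPM for 59.4% of genes, so counts of members are read against a high background. Differences below are log2 of non-basal over CD24lo with their standard error, and adjusted p-values are from edgeR's quasi-likelihood test with Benjamini-Hochberg adjustment. Levels are RPKM, which are scaled for gene length and library.

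Bpifa1 led the secreted transcripts of the trachea and Scgb1a1 those of the lung. Bpifa1 was at 138642, 136752 and 134879 RPKM in the tracheal libraries and 7774, 8106 and 10883 RPKM in the CD24lo libraries. Every tracheal library was far above every lung library, with a log2 difference of 3.94 ± 0.33 or 15.3-fold (adjusted p = 3.08e-08). Scgb1a1 was at 63181, 56535 and 60838 RPKM in trachea and 471792, 658337 and 665687 RPKM in lung. Here the lung libraries were all higher, with CD24lo replicate 1 the lowest of them (log2 difference -3.31 ± 0.26, 9.95-fold lower in trachea, adjusted p = 1.32e-08). The two-sided exact permutation test of 3 against 3 RPKM values gave p = 0.1 for both genes, the smallest it allows. Bpifa1 took 13.9% to 14.1% of all tracheal counts and 0.779% to 1.06% of CD24lo counts, and Scgb1a1 2.47% to 2.72% and 21.5% to 27.6%. In sorted tracheal basal cells the mean was 13551 RPKM for Bpifa1 and 1309 RPKM for Scgb1a1, and in lung CD24hi cells 866 and 78229 RPKM.

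The other secretoglobins, small secreted carrier proteins, differed from Scgb1a1 and from each other. Of 10 members 5 passed the filter on low counts, and 2 of these were higher and 2 lower in trachea, against 53.1% of all genes called. The 5 that did not pass had 0 counts in all 6 libraries. Scgb3a1, known from the larger airways, was at 16479, 19670.5 and 18834 RPKM in trachea and 7095, 6598 and 8755 RPKM in lung. All tracheal values were higher (log2 difference 1.29 ± 0.24, adjusted p = 0.000226). Scgb3a2, a club cell secretoglobin, was at 13578, 12802 and 12236 RPKM in trachea and 8602, 10185 and 13318 RPKM in lung. These ranges overlapped, and the log2 difference of 0.27 ± 0.19 did not pass the threshold (adjusted p = 0.25). Scgb1c1 was at 0.156, 0.322 and 0.298 RPKM in trachea and 76.3, 86.1 and 110.1 RPKM in lung, near absence against a moderate level (-8.37 ± 0.28, adjusted p = 5.77e-13). Its mean was 55.8 RPKM in alveolar and 13.4 RPKM in CD24hi cells. Of its exonic bases 18.7% lie opposite another annotated gene, and whether the counting used strand is not stated in the sources used here.

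Of 14 BPI-fold genes, relatives of the bactericidal protein BPI, 5 passed the filter. Of these 2 were higher and 2 lower in trachea, against 53.1% of all genes called. The other 9 had at most 4 counts in any of the 6 libraries. The lower calls fell to 0 without CD24lo replicate 1, with the tracheal libraries thinned, and with the 6 libraries fitted alone, with or without the replicate block, where 3 genes were tested and 1 was higher. Bpifb1 (LPLUNC1), like Bpifa1 a secreted airway protein, was at 1947, 1783 and 2021 RPKM in trachea and 1537, 1213 and 1708 RPKM in lung. The groups did not overlap but lay close together, and the log2 difference of 0.37 ± 0.22 did not pass (adjusted p = 0.162).

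Other secreted host defence proteins differed in both directions, 7 of 17 tested higher in trachea and 8 lower, against 25.3% and 27.8% of all genes. Their median log2 difference was -0.15. Reg3g, a lectin that kills Gram-positive bacteria, was at 16742, 15845 and 15192 RPKM in trachea and 1207, 1032 and 1519 RPKM in lung. Every tracheal value was far above the highest lung value (3.67 ± 0.26, adjusted p = 4.06e-09). Ltf, the iron-binding lactoferrin, was at 5259.7, 4025 and 4137 RPKM against 153, 199 and 289 RPKM (4.39 ± 0.31, adjusted p = 3.52e-09). Dmbt1, a mucosal scavenger receptor protein, was at 73.5, 63.8 and 87.2 RPKM against 0.177, 0.157 and 0.277 RPKM (8.54 ± 0.35, adjusted p = 3.85e-10). For both, the lung libraries were all far below the tracheal ones. Lyz2, a lysozyme, was at 9042, 6577 and 6389.6 RPKM against 1508, 853 and 1482 RPKM (2.52 ± 0.27, adjusted p = 6.63e-07), but its reads may be shared with its near-copy Lyz1. Pigr, which carries IgA across the epithelium, was 2.98-fold higher (1.58 ± 0.20, adjusted p = 4.74e-06). These 5 transcripts were lower in sorted basal cells than in non-basal cells, with basal means of 559 RPKM for Reg3g, 318 RPKM for Ltf and 19.9 RPKM for Pigr. Chil4, a chitinase-like protein, was called higher (3.10 ± 0.77, adjusted p = 0.00319, or 2.47 without tracheal replicate 3 and 3.86 without CD24lo replicate 2), yet its ranges overlapped at 3.25 to 31.6 RPKM in trachea and 0.915 to 3.902 RPKM in lung, and limma voom gave an adjusted p of 0.0691.

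The CD24lo cells held a different set. Chil1, a chitinase-like lectin, was at 368, 366 and 396 RPKM in lung and 6.15, 7.76 and 8.27 RPKM in trachea (-5.67 ± 0.24, adjusted p = 9.62e-12). Chia1, the acidic chitinase, was at 67.2, 91.95 and 70.2 RPKM against 3.01, 4.14 and 2.99 RPKM (-4.50 ± 0.22, adjusted p = 3.13e-11). Neither overlapped between the groups. Lcn2, which binds bacterial siderophores, was at 51.6, 48.4 and 48.9 RPKM in lung and 7.39, 1.81 and 1.91 RPKM in trachea, where replicate 1 was the highest (-3.74 ± 0.39, adjusted p = 4.69e-07, or -4.73 without that library). Retnla, a resistin-like protein of type 2 inflammation, was at 529, 861 and 616 RPKM against 10.1, 38.1 and 53.6 RPKM (-4.30 ± 0.40, adjusted p = 1.03e-07), with tracheal replicate 1 the lowest. Hp, the haemoglobin-binding haptoglobin, was at 3194, 4451 and 4122 RPKM against 195, 160.1 and 167 RPKM (-4.49 ± 0.23, adjusted p = 6.92e-11). Nos2, the inducible nitric oxide synthase, had 308 counts in the lung and 2 in the tracheal libraries, a ratio of CPM of 459 (95% counting interval 127 to 3786), and its mean in CD24hi cells was 17.8 RPKM. The fitted log2 difference of Nos2 went from -8.42 ± 0.64 to -7.81 without CD24lo replicate 1 (adjusted p = 8.9e-09), resting on few tracheal counts. Chil1, Chia1 and Lcn2 were higher still in alveolar cells, of whose level the CD24lo cells held 10.4%, 28.6% and 5.904%. Hp and Retnla were lower there, at 584 and 31.7 RPKM. Wfdc2, a protease inhibitor of airway fluid, was at 6151 to 7219 RPKM in trachea and 4796 to 5316 RPKM in lung, and its log2 difference of 0.35 ± 0.15 did not pass (adjusted p = 0.0579), although it did under 5 of 17 alternatives.

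**Figure D1:**
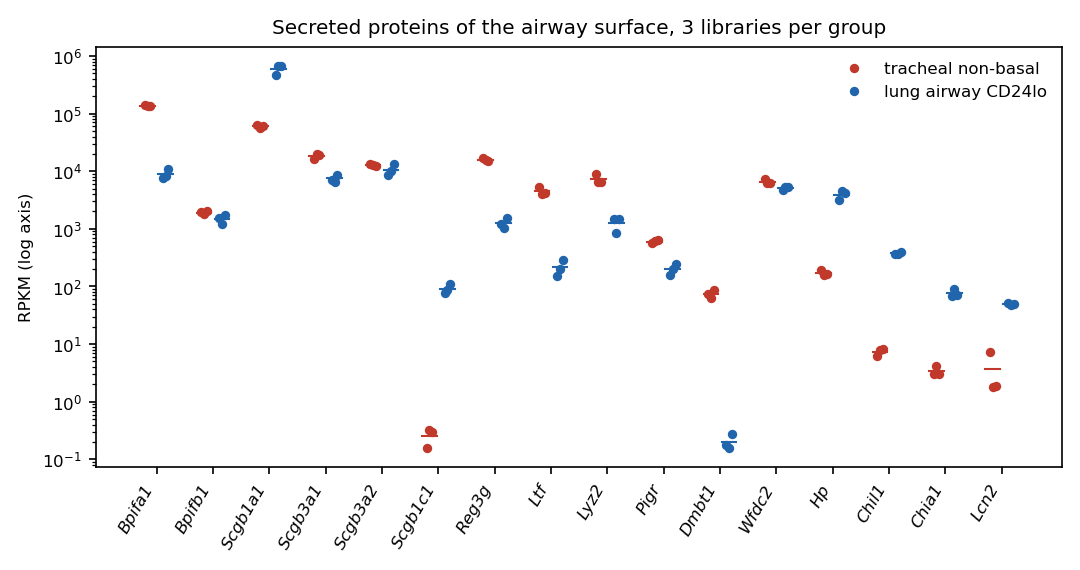
RPKM (log axis) of 16 secreted proteins, with 1 point per library and a bar at the mean of each group of 3 libraries, tracheal non-basal or lung CD24lo. Bpifa1, Reg3g, Ltf and Dmbt1 lie higher in the tracheal libraries, Scgb1a1, Scgb1c1, Hp and Chil1 in the lung libraries, and Scgb3a2 overlaps.

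Mucin and goblet cell genes were mostly higher in trachea, 12 of 19 tested against 25.3% of all genes, with 2 lower and a median log2 difference of 1.25. Muc5b, the gel-forming mucin of the resting mouse airway, was at 224, 281 and 297 RPKM in trachea and 81.1, 96.8 and 102 RPKM in lung, without overlap (1.52 ± 0.25, adjusted p = 7.59e-05). Muc5ac, the gel-forming mucin known from allergic airways, was low in both groups, at 2.06, 2.09 and 2.54 RPKM in trachea and 3.23, 4.68 and 3.61 RPKM in lung (-0.78 ± 0.20, adjusted p = 0.00306). The gel-forming mucins differed in opposite directions. Muc16, a membrane-bound mucin, was at 208, 193 and 184 RPKM against 7.67, 7.33 and 9.71 RPKM (4.57 ± 0.16, adjusted p = 9.74e-13), and Muc4, another, was 3.25-fold higher (1.70 ± 0.15, adjusted p = 4.75e-08). Agr2, a disulphide isomerase needed for mucin folding, was at 576, 474 and 437 RPKM against 39.2, 38.1 and 60.1 RPKM (3.44 ± 0.23, adjusted p = 1.58e-09). Fcgbp, a mucus protein, was at 78.2, 91.7 and 103 RPKM against 3.97, 4.85 and 4.88 RPKM (4.32 ± 0.19, adjusted p = 1.09e-11). In each of these the tracheal libraries were all higher. The goblet cell factors Spdef and Foxa3 were 2.49-fold and 2.17-fold higher (adjusted p = 4.25e-07 and adjusted p = 0.00137), and Clca1, secreted by goblet cells, 2.77-fold (adjusted p = 0.000197). Tff2, a trefoil peptide of mucus, was at 97.1, 79.8 and 111 RPKM in trachea and 346, 317 and 377 RPKM in lung, and was lower in trachea (-1.85 ± 0.37, adjusted p = 0.000398). Muc5ac and Tff2 were the only called members that were lower, and Tff3 was the member not tested.

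Enzymes that build mucin-type sugars were also more often higher, 15 of 24 with 5 lower, against 25.3% and 27.8% of all genes. Their median was 0.63. Gcnt1, which branches these glycans, was at 26.04, 22.6 and 23.5 RPKM in trachea and 1.08, 1.31 and 1.32 RPKM in lung, without overlap (4.28 ± 0.22, adjusted p = 9.74e-11). Galnt5, Galnt4 and Galnt3, which add the first sugar, were 4.48-fold, 3.702-fold and 2.002-fold higher (the highest of these being adjusted p = 7.49e-05, for Galnt3). C1galt1, which extends it, was 1.96-fold higher (adjusted p = 0.00234), and B3gnt3, a further extending enzyme, 3.86-fold (adjusted p = 3.23e-07). Of the endoplasmic reticulum and export machinery, 12 of 24 members were called higher and 2 lower, against the same shares of all genes. The median was 0.24. Creb3l2, a transcription factor of the secretory pathway, was 3.35-fold higher (adjusted p = 4.94e-09), and the vesicle coat genes Sec23b and Sec24d 2.48-fold and 1.78-fold (adjusted p = 1.05e-08 and adjusted p = 4.5e-07). Sec61b, of the translocon, was slightly lower (-0.33 ± 0.09, adjusted p = 0.00587), a call that was lost with the length correction (adjusted p = 0.239).

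Enzymes of xenobiotic metabolism differed in both directions, 15 of 32 higher and 10 lower in trachea, against 25.3% and 27.8% of all genes. Their median was 0.30. Cyp2f2, the P450 by which club cells activate naphthalene, was at 15264, 13507 and 14034 RPKM in trachea and 9815, 13091 and 11877 RPKM in lung. The groups lay close together without overlap, and the log2 difference of 0.30 ± 0.19 did not pass (adjusted p = 0.188), with 13.5% of its exonic bases opposite another gene. Cyp2a5, a P450 of the nasal and airway epithelium, was at 3748, 3076 and 3091 RPKM against 187, 184 and 224 RPKM (4.06 ± 0.21, adjusted p = 8.44e-11). Cyp2a4, its near-copy, with which reads may be confused, differed in the same direction (4.84 ± 0.24). Gsto1, a glutathione transferase, was at 8316, 7757 and 7382 RPKM against 818, 924 and 1074 RPKM, without overlap (3.06 ± 0.14, adjusted p = 2.54e-11). Adh7, a retinol-oxidising dehydrogenase, was 5.901-fold higher (adjusted p = 9.73e-10), and Sult1d1, a sulphotransferase, 3.87-fold (adjusted p = 4.99e-06). The dehydrogenases Aldh3a1 and Aldh1a1 were 2.02-fold and 1.63-fold higher (adjusted p = 0.000109 and adjusted p = 0.00271), and Por, which supplies electrons to the P450s, 1.55-fold (adjusted p = 0.00059).

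Other enzymes of the list were higher in the lung cells. Aox1, aldehyde oxidase, was at 87.8, 101 and 99.8 RPKM in lung and 18.5, 19.7 and 17.5 RPKM in trachea (-2.37 ± 0.11, adjusted p = 1.48e-11). Cyp1b1, a P450 induced through the dioxin receptor, was at 9.09, 10.5 and 12.3 RPKM against 0.0664, 0.00685 and 0.0571 RPKM (-7.87 ± 0.32, adjusted p = 4.46e-12). Cyp2s1, a further P450, was at 203, 104 and 86.04 RPKM against 22.5, 27.04 and 23.01 RPKM, with CD24lo replicate 1 highest (-2.44 ± 0.27, adjusted p = 7.21e-07), and its mean in CD24hi cells was 1141 RPKM. Each was separated without overlap. Cyp1a1, also dioxin-induced, had 237 counts in lung and 2 in trachea, a ratio of 353 (95% counting interval 97.7 to 2914), and CD24lo replicate 1 again stood highest, at 5.71, 0.846 and 1.65 RPKM. Without that library the fitted log2 difference of Cyp1a1 was -6.88 (adjusted p = 1.87e-05), against -8.04 ± 1.03 with it, and both rest on few tracheal counts. EpCAM-negative cells held 9.82 RPKM of Cyp1b1 and 4.52 RPKM of Cyp1a1. The endothelial marker sum was also highest in CD24lo replicate 1, at 1359, 629.5 and 592 CPM over the CD24lo libraries. So was the ciliated marker sum, at 6314, 4536 and 4523 CPM. Cyp1b1 was lowest in that library. The part of other cell types in the Cyp2s1, Cyp1a1 and Cyp1b1 results was not tested. Cbr2, the carbonyl reductase of club cells, was at 9542 to 11547 RPKM in trachea and 14418 to 18567 RPKM in lung (-0.59 ± 0.17, adjusted p = 0.00737), a call lost with the replicate block (adjusted p = 0.144).

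**Figure D2:**
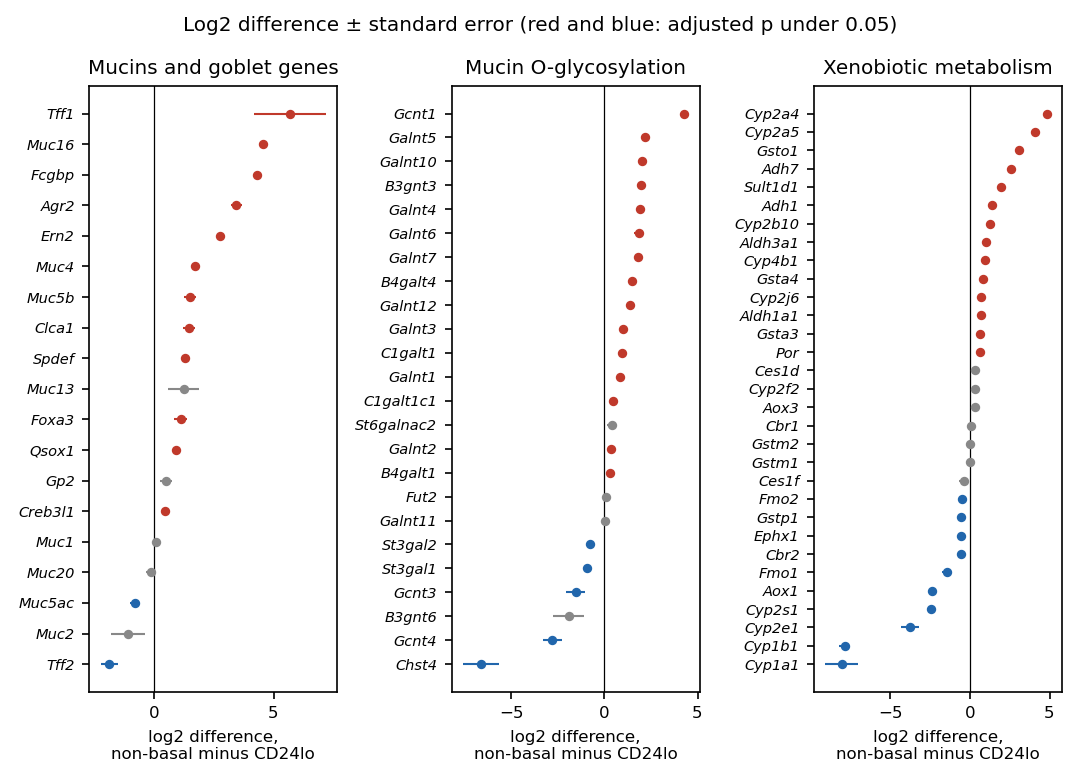
Log2 difference (non-basal minus CD24lo) and standard error of tested members of the mucin and goblet, O-glycosylation and xenobiotic lists, red where called higher in trachea, blue where called lower and grey where not called. Called members lie mainly on the positive side for mucins (12 higher, 2 lower) and O-glycosylation (15 higher, 5 lower), and on both sides for xenobiotic enzymes.

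Airway transcription factors divided between the groups, 12 of 28 higher and 10 lower in trachea, against 25.3% and 27.8% of all genes. Their median was 0.11. Sox21, a relative of Sox2, was at 44.8, 48.4 and 56.5 RPKM in trachea and 6.01, 6.98 and 5.88 RPKM in lung (2.99 ± 0.14, adjusted p = 2.48e-11), with 18.8% of its exonic bases opposite another gene. Pax9, a factor of foregut and pharyngeal epithelium, was at 37.9, 43.4 and 43.6 RPKM against 6.29, 8.28 and 7.56 RPKM (2.50 ± 0.16, adjusted p = 1.27e-09). Klf5, a factor of epithelial identity, was at 148, 176 and 169 RPKM against 28.9, 40.2 and 34.8 RPKM (2.25 ± 0.14, adjusted p = 6.03e-10). In all 3 the tracheal libraries were above the lung libraries. The epithelial ETS factor Ehf was 3.11-fold higher (adjusted p = 5.65e-07), the forkhead factor Foxp2 2.496-fold (adjusted p = 4.58e-06), and Sox2, the factor of conducting airway identity, 1.701-fold (adjusted p = 0.000595). Non-basal cells held 76.3%, 81.7% and 80.5% of the basal cell level of Sox21, Pax9 and Klf5, and in lung CD24hi cells these factors were at 0.848, 0.857 and 20.9 RPKM.

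Several factors of the lung lineage were higher in CD24lo cells. Nkx2-1 was at 83.8, 87.7 and 76.7 RPKM in lung and 41.3, 41.2 and 41.5 RPKM in trachea (-1.002 ± 0.10, adjusted p = 3.85e-07). Foxa2 was at 28.7, 25.8 and 29.9 RPKM against 9.53, 8.801 and 8.51 RPKM (-1.65 ± 0.09, adjusted p = 1.9e-10). Foxa1 was at 52.1, 64.8 and 56.4 RPKM against 138, 131 and 136 RPKM (1.22 ± 0.10, adjusted p = 3.08e-08). The paired forkhead factors Foxa1 and Foxa2 differed in opposite directions, each without overlap. Gata6, a regulator of distal lung epithelium, was 4.28-fold lower in trachea (adjusted p = 1.27e-09), the ETS factor Elf5 2.49-fold (adjusted p = 2.93e-05) and Cebpa, a factor of club and alveolar differentiation, 2.04-fold (adjusted p = 8.44e-07). Etv5, a factor of alveolar type 2 cells, was 11.1-fold lower (adjusted p = 2.22e-11), and its CD24lo level was 2.89% of that in alveolar cells. CD24hi cells of the same lungs held 68.4 RPKM of Nkx2-1, 43.3 RPKM of Foxa2 and 13.99 RPKM of Gata6, and alveolar cells 191, 37.99 and 25.96 RPKM.

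Ion and water transport genes were called in 9 of 18 cases as higher and 7 as lower, against 25.3% and 27.8% of all genes. Their median was 0.31. The epithelial sodium channel, which absorbs sodium from the airway surface, has alpha, beta and gamma subunits. Scnn1a (alpha) was at 127, 127 and 127 RPKM in trachea and 101, 122 and 96.00 RPKM in lung, a small difference (0.26 ± 0.10, adjusted p = 0.0357) that did not pass in 10 of 17 alternatives. Scnn1b (beta) was at 3.58, 3.56 and 4.03 RPKM in trachea and 126, 199 and 179.9 RPKM in lung (-5.50 ± 0.20, adjusted p = 1.53e-12). Scnn1g (gamma) was at 3.64, 3.103 and 3.94 RPKM in trachea and 40.2, 65.3 and 58.2 RPKM in lung (-3.94 ± 0.21, adjusted p = 1.13e-10). The alpha subunit was close between the groups, and beta and gamma were far lower in every tracheal library. The alveolar means of Scnn1b and Scnn1g were 9.44 and 4.42 RPKM, below CD24lo cells.

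Chloride pathways differed too. Cftr, the cystic fibrosis channel, was at 0.784, 0.796 and 0.883 RPKM in trachea and 2.497, 3.395 and 2.72 RPKM in lung (-1.80 ± 0.14, adjusted p = 8.9e-09). Slc26a9, a chloride channel, was at 1.498, 1.47 and 1.35 RPKM against 10.9, 12.5 and 10.7 RPKM (-2.98 ± 0.14, adjusted p = 2e-11), and Slc12a2, which loads chloride into the cell, was 2.64-fold lower (adjusted p = 4.14e-06). Alveolar cells held 16.7, 106 and 82.1 RPKM of these, and the part of alveolar transcripts in their difference was not tested. Ano1, the calcium-activated chloride channel, was at 84.2, 75.4 and 79.00 RPKM in trachea and 22.6, 23.4 and 27.1 RPKM in lung, all tracheal values being higher (1.71 ± 0.13, adjusted p = 6.97e-09). Kcne3, a potassium channel subunit, was 5.69-fold higher (adjusted p = 8.3e-11) and the water channel Aqp5 2.66-fold (adjusted p = 7.06e-07).

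Notch signalling sets the choice between secretory and ciliated fates. Of its 18 tested members 4 were called higher and 9 lower in trachea, against 25.3% and 27.8% of all genes. The median was -0.55. Notch2, a receptor of that choice, was at 41.1, 45.3 and 43.96 RPKM in trachea and 17.7, 24.9 and 26.2 RPKM in lung (0.92 ± 0.12, adjusted p = 6.55e-06), and the target Hey1 was 1.69-fold higher (adjusted p = 6.73e-05). The receptor Notch1 and the ligand Jag1 were 1.76-fold and 1.94-fold lower (adjusted p = 1.74e-05 and adjusted p = 2.35e-06). Nrarp, a feedback target, was 4.12-fold lower (adjusted p = 1.33e-08), but 79.4% of its exonic bases lie opposite another gene. Notch4 and Dll4, best known from endothelium, were at 5.83, 2.31 and 1.83 and 5.79, 1.79 and 1.83 RPKM in the CD24lo libraries and at most 0.247 RPKM in trachea (adjusted p = 1.26e-06 and adjusted p = 1.8e-05). Both were highest in CD24lo replicate 1, as was the endothelial marker sum, whose part was not tested. Without that library the log2 difference went from -4.78 ± 0.55 to -4.09 for Notch4 (adjusted p = 3.76e-06) and from -3.78 ± 0.55 to -2.97 for Dll4 (adjusted p = 0.000139).

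**Figure D3:**
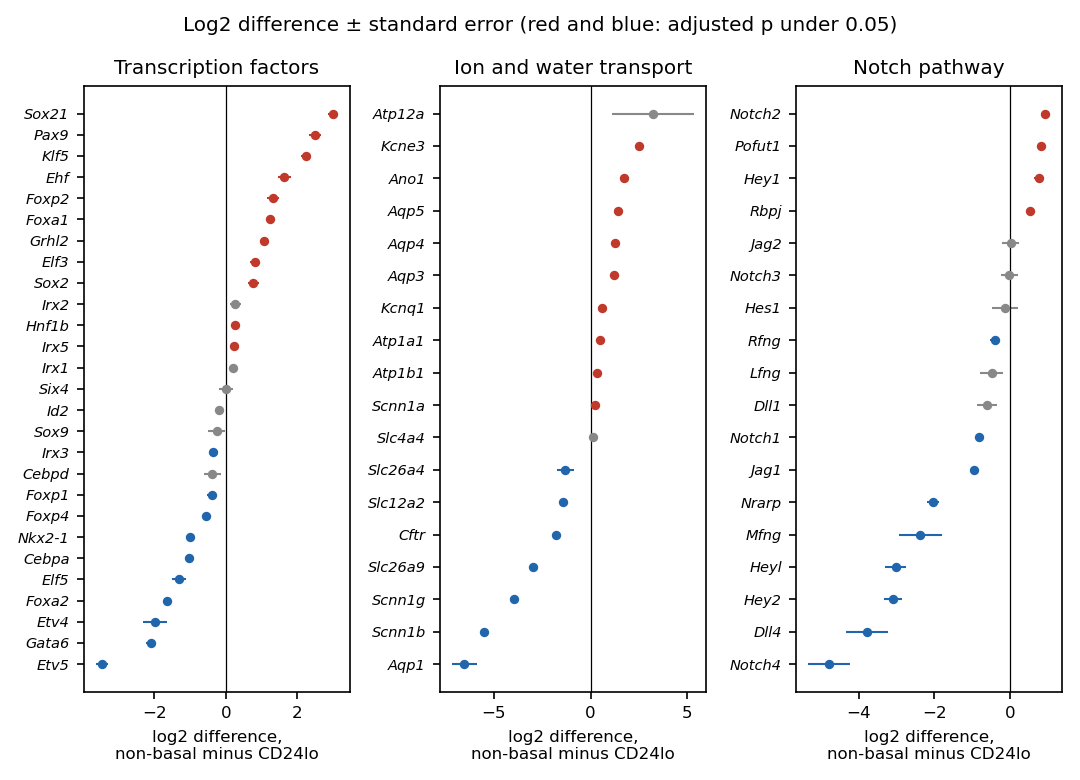
Log2 difference (non-basal minus CD24lo) and standard error of tested transcription factors, transport genes and Notch pathway genes, red where called higher in trachea, blue where called lower and grey where not called. Sox21 (2.99) and Etv5 (-3.47) lie at opposite sides of the factors, and Scnn1b (-5.50) and Scnn1g (-3.94) far below Scnn1a (0.26).

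Chemokines and epithelial cytokines were called higher in 6 of 21 and lower in 11, against 25.3% and 27.8% of all genes. Their median was -1.27. Ccl28, a chemokine of mucosal surfaces, was at 12.9, 13.7 and 13.3 RPKM in trachea and 0.591, 0.630 and 0.800 RPKM in lung (4.31 ± 0.20, adjusted p = 2e-11), and Cxcl5, a neutrophil chemokine, at 72.6, 88.5 and 89.4 RPKM against 14.1, 15.2 and 23.4 RPKM (2.25 ± 0.20, adjusted p = 7.55e-08). Cxcl15, lungkine, was at 5.57, 5.98 and 5.79 RPKM in trachea and 464, 476 and 561 RPKM in lung (-6.43 ± 0.22, adjusted p = 8.78e-13). None of these overlapped, and the CD24lo level of Cxcl15 was 9.34% of that in alveolar cells. Complement genes were higher in 1 of 14 and lower in 8, against the same shares of all genes, with a median of -0.58. The member that was higher, Cfb, an activator of the alternative pathway, shares 79.5% of its exonic bases with another annotated gene on its strand (1.64 ± 0.15). Hc, complement C5, was 96.2-fold lower (adjusted p = 7.58e-12) and C3, the central component, 1.59-fold (adjusted p = 0.000997), and alveolar cells held 915 RPKM of Hc.

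Antigen presentation and interferon-stimulated genes went in opposite directions. Of 8 MHC class II genes 6 were lower and 0 higher in trachea (median -1.10), against 27.8% of all genes lower. Without CD24lo replicate 1 only 3 were lower. Cd74, the invariant chain, was at 62.3, 30.3 and 45.2 RPKM in trachea and 176, 102 and 115 RPKM in lung (-1.51 ± 0.31, adjusted p = 0.000631), with alveolar cells at 2698 RPKM, and the part of alveolar and immune transcripts was not tested. Of 12 interferon-stimulated genes 9 were higher and 0 lower (median 1.62), against 25.3% of all genes higher. Oasl2, an antiviral synthetase-like protein, was at 67.5, 60.6 and 59.97 RPKM against 9.87, 7.14 and 7.05 RPKM (2.96 ± 0.12, adjusted p = 5e-12), and Ifit1, an RNA-binding antiviral protein, at 39.9, 33.2 and 28.6 RPKM against 6.21, 5.88 and 6.15 RPKM (2.48 ± 0.13, adjusted p = 1.34e-10). Mx1, another member of the list, was 6.85-fold higher (adjusted p = 7.58e-09), and Irf7, which amplifies interferon responses, 3.21-fold (adjusted p = 4.75e-09). For these 4 genes every tracheal library exceeded every lung library.

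Keratins, the intermediate filaments of epithelium, were higher in trachea in 13 of 14 and lower in 0, against 25.3% and 27.8% of all genes. Their median was 2.03. Krt4, of stratified epithelium, was at 318, 218 and 233 RPKM in trachea and 0.906, 1.61 and 1.89 RPKM in lung (7.47 ± 0.26, adjusted p = 8.78e-13). Krt15 was at 1379, 1024 and 1056 RPKM against 71.7, 115 and 103 RPKM (3.58 ± 0.22, adjusted p = 8.67e-10). Neither overlapped. Krt5, the basal cell keratin, was at 126, 103 and 130 RPKM against 31.9, 59.99 and 36.5 RPKM (1.48 ± 0.23, adjusted p = 3.27e-05). Non-basal cells held 7.79% of the basal cell level of Krt5 and 5.41% of that of Krt14, but 47.8% for Krt15 and 61.3% for Krt4. The simple keratins Krt8, Krt18 and Krt19 were 1.99-fold, 1.72-fold and 2.96-fold higher. Of 14 proliferation genes 13 were higher and 0 lower (median 1.45), among them Mki67 at 4.31, 4.34 and 4.36 RPKM against 0.731, 1.64 and 1.15 RPKM (1.89 ± 0.31, adjusted p = 7.65e-05), with basal cells at 12.96 RPKM. Basal marker sums were 2865 to 3552 CPM in non-basal and 726 to 1005 CPM in CD24lo cells. The basal marker list shares Krt5, Krt14, Krt15 and Krt17 with the keratins, so its sum is not independent of them. The part of basal cells in the keratin and proliferation lists was not tested. Immediate early and heat shock genes, which answer to dissociation, were higher in 7 of 26 and lower in 7, near the shares of all genes.

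**Figure D4:**
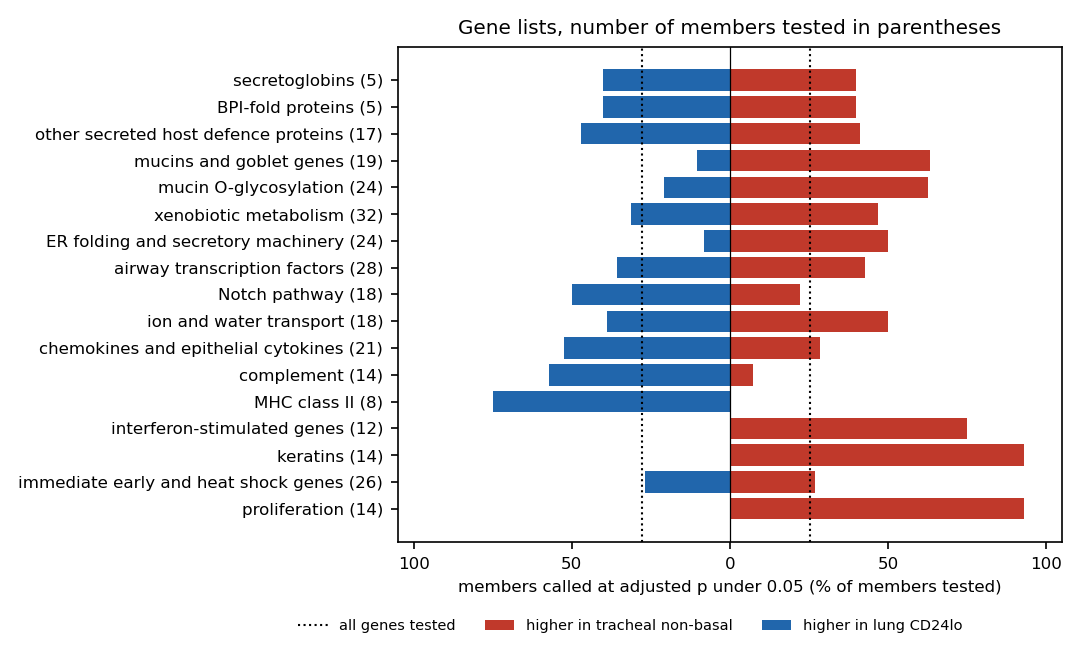
Share of tested members (percent, number tested in parentheses) called higher in tracheal non-basal cells, to the right, and lower, to the left, for 17 gene lists, with dotted lines at the shares of all genes tested, 25.3% and 27.8%. Keratins, proliferation and interferon-stimulated genes have called members on the tracheal side alone, and MHC class II on the lung side alone.

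The gate genes matched the labels in part. Epcam was at 107 to 126 RPKM in trachea and 83.7 to 89.8 RPKM in lung, and Cd24a at 349.8 to 411 and 338 to 343 RPKM against a mean of 1103 RPKM in CD24hi cells. Ngfr was at 3.12 to 4.68 RPKM in non-basal cells, 10.1% of the basal cell level, and at 2.296 to 3.399 RPKM in CD24lo cells. Ptprc, which encodes CD45, was at 1.19 to 2.46 and 0.867 to 2.48 RPKM. Pecam1, which encodes the CD31 that the lung gate excluded, was at 72.7, 25.2 and 23.7 RPKM in CD24lo cells and 0.117 to 0.335 RPKM in trachea (-7.40 ± 0.63, adjusted p = 3.44e-08), or -6.67 without CD24lo replicate 1 (adjusted p = 1.87e-08).

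Markers of several other cell types differed between the groups, where 25.3% of all genes were higher and 27.8% lower in trachea. All 10 endothelial markers were lower in trachea, with sums of 8.71 to 10.4 CPM there and 592 to 1359 CPM in CD24lo cells, and all 12 stromal markers likewise, with 74.9 to 126 against 768 to 1162 CPM. The other lung populations held both. Endothelial sums were 278 to 964 CPM in CD24hi, 377 to 579 CPM in alveolar and 721 to 1112 CPM in EpCAM-negative cells. Stromal sums were 185 to 471, 929 to 1433 and 32453 to 34173 CPM in the same order. Immune markers were higher in 1 and lower in 6 of 15, against 53.1% of all genes called, or in 2 and 4 without CD24lo replicate 1. Their sums overlapped at 31.1 to 52.3 and 35.4 to 54.5 CPM. Of 25 ciliated markers 18 were lower and 0 higher, and without CD24lo replicate 1 only 7 were lower. Their sums were 4924, 4735 and 3934 CPM in trachea and 6314, 4536 and 4523 CPM in CD24lo cells, against 25247 to 26397 CPM in CD24hi cells. Foxj1, the regulator of motile cilia, was at 31.7, 53.8 and 42.9 RPKM in trachea and 108, 51.5 and 52.6 RPKM in lung, where replicate 1 alone stood above the tracheal range (-0.72 ± 0.26, adjusted p = 0.0275), and its call was lost without that library (-0.28, adjusted p = 0.3). Basal markers were higher in 12 of 14, and Trp63, their defining factor, was at 8.93, 11.3 and 16.9 RPKM in trachea and 6.78, 11.9 and 8.57 RPKM in lung, which did not pass (0.45 ± 0.25, adjusted p = 0.141). Sums of basal markers in sorted basal cells were 13711 to 14274 CPM.

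Markers of several rare epithelial types also differed, where 25.3% of all genes were higher and 27.8% lower in trachea. All 12 tuft cell markers were higher, with sums of 118 to 162 CPM against 21.8 to 23.5 CPM. Trpm5, the taste transduction channel of tuft cells, was at 9.61, 6.64 and 6.84 RPKM in trachea and 0.168, 0.179 and 0.0263 RPKM in lung (5.87 ± 0.33, adjusted p = 1.98e-10). All 7 hillock markers were higher, with 2446 to 3222 against 637 to 668 CPM, a list that shares Krt4, Krt6a and Krt13 with the keratins. The hillock sum was higher still in sorted basal cells, at 3623.5 to 3897 CPM. It was 1155.5 to 1389 CPM in CD24hi and 1122 to 1153 CPM in EpCAM-negative cells, both above CD24lo cells. Foxi1, the defining ionocyte factor, had 426 counts in trachea and 0 in lung, at least 15.7-fold higher with a floor of 3 counts per library, while the ionocyte list had 5 of 8 higher and 2 lower, Cftr among the latter. The summed ionocyte markers were lower in trachea, at 179 to 211 CPM against 216 to 281 CPM in CD24lo cells. Of 11 neuroendocrine markers 5 were higher and 1 lower, near the 53.1% of all genes called, or 3 higher without CD24lo replicate 1. Of 7 submucosal gland genes only Dcpp3 was tested, at 24.9, 6.28 and 20.2 RPKM in trachea and 0 counts in lung, at least 34.2-fold higher, and its reads may be shared with the near-copies Dcpp1 and Dcpp2.

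Alveolar transcripts were present in CD24lo cells, unevenly between genes. Of 11 alveolar type 2 markers 10 were lower in trachea and Lyz2 alone was higher, against 27.8% and 25.3% of all genes. Their sums were 8640 to 11562 CPM in trachea and 13590 to 15950.5 CPM in CD24lo cells. Lyz2 made up 6754 to 9557 CPM of the tracheal sums. Sftpc, the defining surfactant gene, was at 5709, 2697 and 4243 RPKM in CD24lo cells and 2.29, 4.76 and 3.08 RPKM in trachea (-10.29 ± 0.49, adjusted p = 3.13e-11). The CD24lo level was 2.699% of the alveolar level for Sftpc, 2.501% for Lamp3, 3.61% for Slc34a2 and 2.48% for Napsa, and it was 13.8% for Sftpb, 12.5% for Sftpa1, 16.03% for Abca3 and 21.1% for Sftpd. The collectin Sftpd was at 633, 572 and 533 RPKM in trachea and 843, 1041 and 1116 RPKM in lung (-0.79 ± 0.18, adjusted p = 0.00115), and the collectin Sftpa1 at 329.8, 329.5 and 331 RPKM against 1123, 1235 and 1413 RPKM (-1.93 ± 0.23, adjusted p = 2.06e-06). Both were well above the level of Sftpc in the tracheal libraries. Of 10 alveolar type 1 markers 8 were lower and 2 higher, against 27.8% and 25.3% of all genes. Their sums overlapped, at 1322 to 1547 CPM in trachea and 1335 to 1878.5 CPM in CD24lo cells. Ager, a defining member of that list, was at 237, 222 and 171 RPKM in lung and 0.927 to 1.102 RPKM in trachea. The part of alveolar cells in the genes lower in trachea was not tested.

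**Figure D5:**
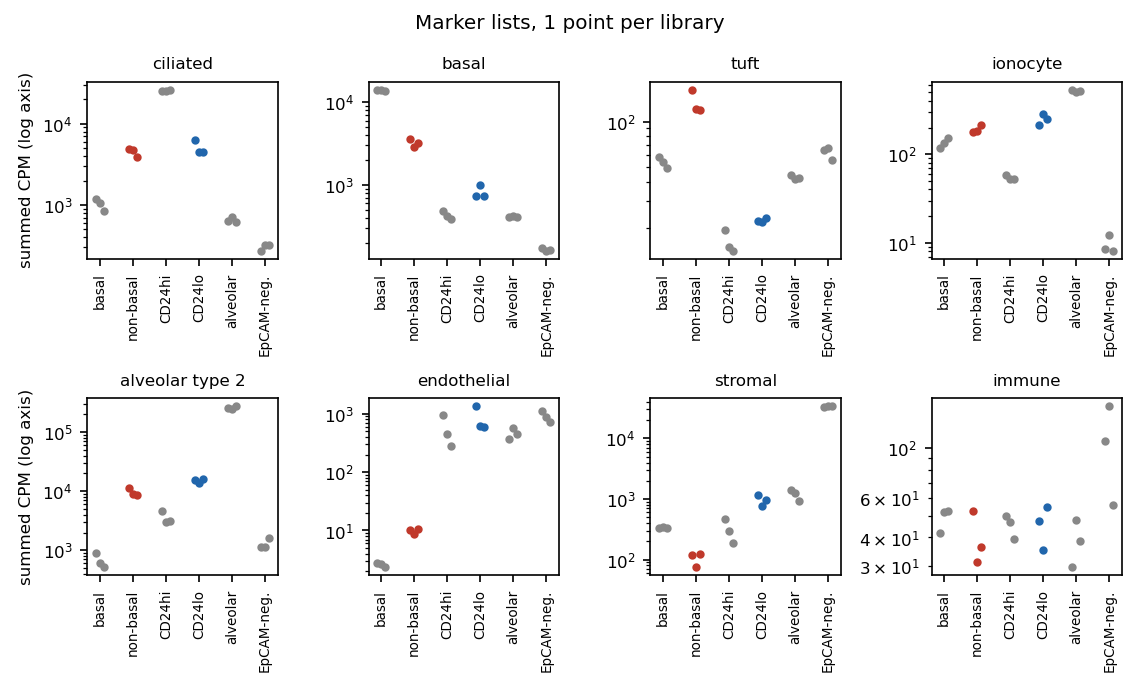
Summed CPM (log axis) of 8 marker lists in all 18 libraries, 1 point per library, with tracheal non-basal and lung CD24lo cells in colour and the other 4 populations in grey. Endothelial sums lie at 8.71 to 10.4 CPM in non-basal and 592 to 1359 CPM in CD24lo cells, and ciliated sums of both groups lie below those of CD24hi cells.

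The 10 largest rises, among called genes without overlap whose mean reached 10 CPM, were led by Serpinb2, a protease inhibitor of stratified epithelium. It was at 22.8, 24.5 and 28.2 RPKM in trachea with 1 count in the lung libraries, a ratio of 1535 (95% counting interval 276 to 60634). Its mean in sorted basal cells was 34.5 RPKM, and it shares 12.4% of its exonic bases with Serpinb10. Serpinb11 (8.93 ± 0.40, or 8.34 to 10.63 without CD24lo replicate 2 or 3), Dmbt1, Lipf, Sult1c1 (7.92 ± 0.28, or 8.55 without CD24lo replicate 3), Krt4 and Atp13a5 (7.11 ± 0.26) belonged to the same set. Lipf, a lipase, varied over 50.04, 12.1 and 19.8 RPKM in trachea, and limma voom gave it an adjusted p of 0.0589. The remaining 3 were transcription regulators. Osr2 was at 69.2, 77.1 and 69.97 RPKM in trachea and 0.538, 0.287 and 0.471 RPKM in lung (7.37 ± 0.24, adjusted p = 5.59e-13). Isl1, a LIM homeobox factor, was at 19.2, 20.1 and 19.4 RPKM against 0.0365, 0.0777 and 0.319 RPKM (7.16 ± 0.31, adjusted p = 1.17e-11, or 8.37 without CD24lo replicate 3), and Eya4, a transcriptional coactivator, at 16.4, 22.2 and 20.4 RPKM against 0.135, 0.120 and 0.169 RPKM (7.12 ± 0.21, adjusted p = 1.21e-12). All 3 were present in sorted basal cells as well, at 71.4, 14.9 and 12.2 RPKM, and near 0 in CD24hi cells, at 0.0880, 0.0197 and 0.0189 RPKM.

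The 10 largest falls were Cldn18, C6, Car4, Cxcl14, Sftpc, Sema3g, Cldn5, Fendrr, Cdh5 and Hykk. Cldn18, a tight junction gene of alveolar epithelium, was at 45.2, 25.3 and 22.4 RPKM in CD24lo cells with 1 count in trachea, a ratio of 8766 (95% counting interval 1573 to 346246). Alveolar cells held 310.1 RPKM of Cldn18 and CD24hi cells 112.6 RPKM, both above CD24lo cells. C6, a terminal complement component, was at 24.4, 31.97 and 32.5 RPKM with 2 tracheal counts, a ratio of 3695 (95% counting interval 1023 to 30513). Its mean in alveolar cells was higher, at 76.7 RPKM. Cldn5, a tight junction gene of endothelium, ranged over 29.1 to 92.3 RPKM and was highest in replicate 1, and Cdh5, the endothelial cadherin, was at 49.7, 19.5 and 16.2 RPKM. Car4, Cxcl14, Sema3g and Fendrr were also highest in CD24lo replicate 1, for example Car4 at 43.3, 12.8 and 12.5 RPKM. Without that library the calls of Cldn5, Cdh5, Car4, Cxcl14, Sema3g and Fendrr held (adjusted p at most 5.51e-06 in edgeR). EpCAM-negative cells held more Cxcl14 than any other population, 338 RPKM.

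The 10 largest rises among genes that also exceeded basal and CD24hi cells in every library were Serpinb11, Dmbt1, Sult1c1, Isl1, Eya4, Atp13a5, Gnat3, Tmc5, Trpm5 and Akr1c18. This choice rests on the same values and carries no test of its own. Tmc5, a membrane protein, was at 47.2, 47.7 and 42.1 RPKM in trachea, 0.876, 0.456 and 0.588 RPKM in lung and 1.73 RPKM in basal cells. Akr1c18, a steroid-reducing enzyme, was at 304, 262 and 232 RPKM against 5.11, 6.12 and 8.94 RPKM, with 48.8 RPKM in basal cells. Gnat3, the gustducin of tuft cells, was at 23.3, 16.5 and 15.7 RPKM against 0.0784, 0.167 and 0.294 RPKM. In each the tracheal non-basal libraries were the highest of those compared.

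The 10 largest falls among genes that also exceeded CD24hi, alveolar and EpCAM-negative cells in every library were Kdr, Scgb1c1, Shh, Gjb6, Atp2b2, Aspg, Scnn1b, Adora1, B430010I23Rik and Hp. Shh, the hedgehog ligand of lung epithelium, was at 29.9, 36.4 and 39.5 RPKM in CD24lo cells and 0.141, 0.211 and 0.391 RPKM in trachea, with 28.3% of its exonic bases opposite other genes. Gjb6, a gap junction gene, was at 11.9, 18.04 and 19.02 RPKM against 0.179, 0.184 and 0.316 RPKM, and Atp2b2, a calcium pump, at 8.12, 13.7 and 9.98 RPKM against 0.164, 0.174 and 0.148 RPKM. CD24lo replicate 1 was the lowest of its group for each of these 3. Adora1, an adenosine receptor, and B430010I23Rik had 20.1% and 18.7% of their exonic bases opposite another gene.

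The 10 transcripts of highest mean RPKM in each group had 7 in common: Bpifa1, Scgb1a1, Scgb3a1, Scgb3a2, Cyp2f2, Cbr2 and Wfdc2. The tracheal set was completed by Reg3g, Gsto1 and Lyz2, and the lung set by the mitochondrial transcripts CYTB, COX1 and ND2.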

How the data were processed

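RNA of sorted cells was sequenced as single-end reads, 3 libraries for each of 6 populations. Per the labels and methods, the authors made FASTQ files with bcl2fastq 1.8.4, aligned them to mm10 with Rsubread and assigned them to Entrez genes with featureCounts, and the deposited values are raw counts per gene for each library, with a gene length. Whether the counting used strand is not given in the sources used here. Of 27179 genes 25275 matched a symbol, and 0 rows named no gene. A table of the whole series gave identical counts and was left aside. Exons shared between genes were checked in a separate gene annotation, while the study counted reads with the RefSeq annotation built into Rsubread. An overlapping gene found in the check may not have been among those counted.

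The 17989 genes that passed 0.2 CPM in 3 or more of 18 libraries were scaled by TMM and fitted over all 18 libraries with edgeR 4.0.16 (quasi-likelihood test, Benjamini-Hochberg adjustment, threshold 0.05) in R 4.3.3. RPKM used the deposited gene length. Counts of 0 were replaced by a floor of 3 counts per library for bounds, and intervals of ratios cover counting error only. Exact permutation tests used scipy 1.17.1. On simulated counts for this comparison over 17989 genes, the fit recovered 63 of 100 genes changed by 2-fold and 79 of 100 changed by 4-fold, and called 2 unchanged genes. The simulation gave all groups the same mean per gene and changed 200 genes, far fewer than the 9551 called in the data. Its rates of recovery and of false calls therefore do not carry over to those calls.

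The members, gene lists and markers were chosen with earlier results of these data known. Named genes were the members of these lists, the 10 largest rises and falls among called genes without overlap whose mean reached 10 CPM, the 10 of each that also exceeded the other populations stated in the text, and the 10 highest mean RPKM of each group; genes without a symbol, Y-linked genes and Xist were left out of the ranked differences. Some members of the lists are not reported here by name or drawn in the plots. Alternatives were RLE size factors, library size alone, DESeq2 1.42.0, limma 3.58.1 voom (the study's test), a CPM filter of 1, no filter, the 6 libraries alone with and without a replicate block, each library left out, thinned tracheal counts, a length correction and a 1.2-fold threshold. The replicate numbers mark different mice, and deviations of same-numbered libraries correlated at 0.0342, 0.0268 and -0.00506, so the groups were not treated as paired.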

Additional observations from a re-analysis of the deposited data

How the results depend on the processing

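Of 9551 genes called, 4545 higher and 5006 lower in tracheal non-basal cells, the alternatives left 7346 (a 1.2-fold threshold) to 9890 (limma voom), and 0 genes were called in the opposite direction under any of 17 alternatives. Leaving out 1 library gave 8319 to 8965 calls, 3979 to 4160 higher and 4180 to 4821 lower. With the replicate number as a block, although the groups are not paired, 8112 genes were called, 3999 higher and 4113 lower. Of 2958 values of 174 named genes under these alternatives, 2917 kept their direction and side of the threshold, 32 lost the call, 7 gained it and 2 changed sign. The sign changes were of Ptprc, which was not called (0.16), at -0.214 without tracheal replicate 1 and -0.138 without CD24lo replicate 2, within -0.214 to 0.659 over the libraries left out. Of 544 list medians 497 moved by less than the spread, 40 moved further and 7 changed sign. The latter were the secretoglobins (0.27) at -1.55 and the BPI-fold genes (0.37) at -0.092 with a CPM filter of 1, which tests fewer genes, the host defence proteins (-0.15) at 0.052 with limma voom, 0.021 with the replicate block and 0.301 without CD24lo replicate 1 (-0.539 to 0.301 over the libraries left out), and the immediate early and heat shock genes (0.04) at -0.055 without tracheal replicate 2 (-0.055 to 0.14 over the libraries left out) and -0.011 with the length correction. Beyond the filter, the cause was not tested. The lung libraries were shallower than the tracheal ones, and thinning the tracheal counts to their mean total gave 8630 calls.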

Other observations

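Kdr, a VEGF receptor listed here among the endothelial markers, was at 42.5, 43.7 and 42.2 RPKM in the CD24lo libraries, level across them. Pecam1, at 72.7, 25.2 and 23.7 RPKM, and Cdh5, at 49.7, 19.5 and 16.2 RPKM, were highest in CD24lo replicate 1. The mean of Kdr in EpCAM-negative cells was 18.5 RPKM and that of Pecam1 47.1 RPKM, so that CD24lo cells exceeded them in Kdr.

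Msln, listed as a mesothelial marker, was at 1226, 1268 and 1232 RPKM in tracheal non-basal cells and 33.1, 32.4 and 53.1 RPKM in CD24lo cells (4.98 ± 0.31, adjusted p = 7.39e-10 in edgeR), while the other 3 mesothelial markers were lower in trachea. Its mean was 116 RPKM in tracheal basal and 10.5 RPKM in EpCAM-negative cells.

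Of the immediate early and heat shock genes, tracheal replicate 1 had the lowest sum of its group, with 20429, 28847 and 28663 CPM over the tracheal libraries and 20604, 23068 and 21167 CPM over the CD24lo libraries. Jun, an immediate early factor, was at 677, 991 and 1063 RPKM in trachea and 707, 812 and 830.3 RPKM in lung. Gadd45b, a stress response gene of the same list, was at 43.8, 83.5 and 72.1 RPKM against 176, 292 and 183 RPKM (-1.71 ± 0.27, adjusted p = 5.54e-05 in edgeR).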
